A study of Mus musculus with 8 samples.

Results

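The effect of deleting JunB was described in keratinocytes of unperturbed mouse skin, across 6343 genes chosen from the 26340 single gene symbols of the table that set the wild type library beside the JunB cKO library. A gene was kept when its FPKM (fragments per kilobase of transcript, scaled to the number of mapped fragments) was at least 10 in either genotype, and where a symbol had several loci the most abundant locus was used. The wild type library was labelled JunB +/+ and the cKO library JunB -/-, both from the trypsin-isolated keratinocytes of C57BL/6 mice with no treatment. Mice were 60 days old, and their dorsal skin was the source of the material. JunB was deleted through a floxed allele and K14-Cre, which is active in basal keratinocytes of the epidermis and in their descendants. RNA of 3 samples was pooled for each library. There was thus 1 library per genotype, no replicate check was possible for any value below, and no p-value is given. The series also held hair-plucking samples (day 4) and wound samples (day 30) of both genotypes, which are used only at the end.

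JunB is a subunit of AP-1, a family of transcription factors in which a Jun protein pairs with another Jun, a Fos or a related leucine zipper protein and binds a short palindromic DNA element. In the epidermis, basal keratinocytes attached to the basement membrane divide, leave the basal layer, make the spinous keratins and then build the cornified envelope, a shell of crosslinked proteins such as loricrin, filaggrin, involucrin and the small proline-rich proteins. Sebaceous glands, which are appendages of the same epithelium, produce a secretion rich in fatty acids, wax esters and sterols.

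The label keratinocyte was checked against marker genes. Krt5 had 2592 FPKM in wild type and 2690 in cKO, Krt14 had 1212 and 1113, and Krt15 had 1339 and 1308, so the basal keratins hardly differed. The 16 fibroblast markers reached no more than 17.5 FPKM in wild type and 21 in cKO (Thy1, which T cells also carry), and Col1a1, the main dermal collagen gene, stood at 2.66 and 2.58. The 9 endothelial and 5 Merkel cell markers that were listed summed to 1.18 and 0.315 FPKM in wild type and to 5.02 and 3.48 in cKO. Immune cells resident in the epidermis were present, with the Langerhans cell gene Cd207 at 23.4 and 15.2 FPKM and the T cell gene Cd3e at 4.5 and 6.17. In such bulk samples, fewer cells of a type and less RNA per cell cannot be told apart.

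The libraries differed in depth and in their low values. In 1059 sensory receptor genes (olfactory, vomeronasal and taste receptors with a locus of 880 to 1000 bases), values came in steps of what 1 read was worth, and these steps gave 13.3 reads per FPKM and kilobase in wild type and 3.92 in cKO. A gene of 1 kilobase at 10 FPKM therefore rested on about 133 reads in wild type and 39.2 in cKO. These receptor genes were above 0 for 3.68% in wild type and for 84.6% in cKO, and the median over all 1480 receptors was 0 FPKM and 0.543 FPKM. Their part in the results was not tested. Taking these medians off every gene of the same library gave 96 genes at least 2-fold higher in cKO and 154 lower. Without this step the counts were 103 and 114. The intervals given below are 95% Clopper-Pearson intervals computed on reads estimated from these steps and the GENCODE transcript length, and they cover counting error only. They belong to the log2 ratio without any added FPKM, so they need not be centred on the printed ratios, which have 1 FPKM added to both values.

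Differences are given as the log2 ratio of cKO over wild type after adding 1 FPKM to both values, which understates the change of low genes. The median of this log2 ratio over the 6343 members was -0.23, its middle 50% of genes lay between -0.40 and -0.04, and 1350 members were above 0 against 4992 below. Most members therefore stood a little lower in cKO, whereas over all 26340 symbols, low values included, 14805 were above 0 and 8886 below (median 0.13). Small RNAs held 72.8% of the summed FPKM of members in wild type and 78.4% in cKO, and their part in the shift was not tested. List medians are also given relative to -0.23. At a limit of 2-fold, 103 members were higher in cKO (1.62%) and 114 were lower (1.8%). After centring on the median of members the numbers were 135 and 77. Members with at least 10 FPKM in 1 genotype only could lie on 1 side of 0 only. The 779 through wild type were all below 0 and held 71 of the 114 lower genes. The 216 through cKO were all above 0 and held 61 of the 103 higher genes. This limit holds for every member named below with 1 of its 2 unperturbed values under 10 FPKM.

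Short RNAs (small nuclear, small nucleolar, micro and similar RNAs) held many of these extremes although there were only 143 of them. They gave 49 of the higher genes and 36 of the lower ones, and a value of 0 stood in the wild type column for 30 of them and in the cKO column for 31. Snord49a, for example, was listed at 0 in the wild type library and had 1998 FPKM in cKO, whereas Snord34 had 626 FPKM in the wild type library and a listed 0 in cKO. The 5892 protein-coding members differed far less often, with 27 higher in cKO by the 2-fold limit (0.458%) and 54 lower (0.916%). The account below is about them, and these shares are the background for every count of a gene list. Of those with a transcript length, the counting interval lay wholly beyond 2-fold for 17 of 27 higher genes and 27 of 53 lower genes, and it lay wholly on the named side of 0 for all 27 and all 53. The intervals were built from the same values that gave the calls, so their position is no separate support for the calls.

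**Figure D1:**
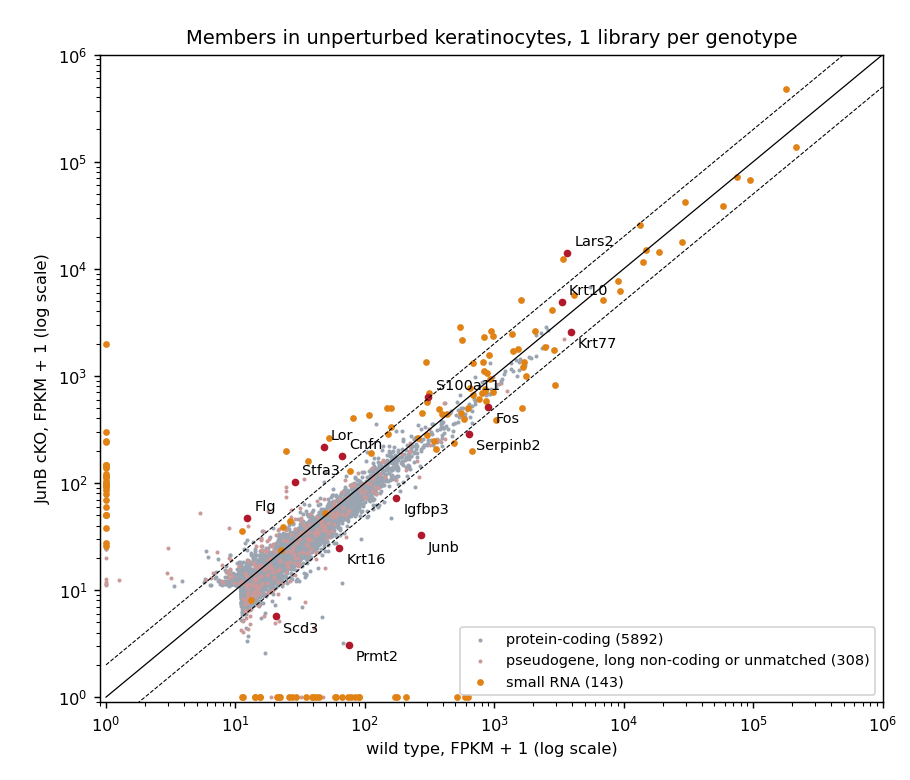
FPKM + 1 of the 6343 members in wild type (x axis) and JunB cKO (y axis), both on log scales, with 1 point per gene, the solid line at equal values and dashed lines at 2-fold. Many but not all small RNAs (orange) lie near the axes or far from the diagonal, the labelled genes are in red, and most protein-coding genes (grey) lie close to it, with Junb and Prmt2 far below and Lor and Flg above.

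Junb itself, a gene at chr8:84976909-84978748 on the minus strand (GRCm38), had 268 FPKM in wild type and 31.4 in cKO. That is 8.52-fold lower, with a log2 ratio of -3.05 and a counting interval of -3.29 to -2.90 without the added FPKM, from about 6443 and 223 estimated reads. The cKO label thus matched the targeted gene, though transcript was still counted in the cKO library. Among the 10 most abundant genes outside predicted genes in wild type were Krtdap, Krt77, Krt10, Krt5 and Dmkn, all genes of keratinocytes.

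The other Jun and Fos genes were lower in cKO to a smaller degree, and none of them passed 2-fold. Fosb went from 178 to 96.7 FPKM (log2 ratio -0.88) and Fos from 892 to 514 (-0.79), the Fos partners that tissue handling and growth factors induce within minutes. Jun, the founding member of the family, went from 215 to 145 (-0.57), Fosl1 from 44.4 to 30.1 (-0.55) and Jund from 114 to 86.5 (-0.39). Fosl2 was nearly level at 46.1 and 43.7 FPKM (-0.08). The 7 genes together had a median of -0.57, which is -0.33 relative to all members, with 0 of 7 above 0.

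Genes induced by the same stimuli as Fos had a median nearer to that of all members. The 32 immediate early and stress genes had a median of -0.29, with 0 past 2-fold in either direction and 7 of 32 above 0. Egr1, a zinc finger factor induced with Fos, was at 175 and 138 FPKM, Atf3, a stress-induced AP-1 partner, at 282 and 217, and Dusp1, which switches off MAP kinases, at 227 and 176. Nr4a2 (10.9 and 5.21 FPKM) and Socs3, a feedback inhibitor of cytokine signalling (62.8 and 35.5), were the lowest of that list at -0.94 and -0.81, respectively. The 9 other AP-1 partners (Atf, Batf and Maf type genes) had a median of -0.25, with 0 past 2-fold and 1 above 0. At its other end Ereg, an EGF receptor ligand, had 23.1 and 28.5 FPKM and Hspa8, a heat shock protein, 106 and 127.

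Terminal differentiation genes formed the clearest protein-coding group on the higher side. Lor, which encodes loricrin, the main protein of the cornified envelope, had 47 FPKM in wild type and 213 in cKO, a log2 ratio of 2.16 with a counting interval of 2.07 to 2.30. Flg, which encodes the keratin-bundling protein filaggrin, had 11.3 and 46.1 FPKM (1.94). Cnfn, which encodes the envelope protein cornifelin, had 65.3 and 177 (1.42, interval 1.25 to 1.62). These were the 3 of 19 cornified envelope members at least 2-fold higher, against 1 that was 2-fold lower, and 13 of 19 were above 0.

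The rest of the envelope list was spread. Lce1m, a late cornified envelope gene, had 171 FPKM in wild type and 303 in cKO (0.82), Kprp 56 and 87.2 (0.63), Hrnr, a filaggrin relative, 20.7 and 30.5 (0.54), and Flg2 195 and 247 (0.34). Ivl, which encodes the early scaffold protein involucrin, was nearly level at 103 and 113 FPKM (0.13). The lower end held the small proline-rich genes Sprr1b, with 33.8 and 13 FPKM (-1.32, interval -1.88 to -0.93), and Sprr1a, with 477 and 305 (-0.64), and the plakin-type scaffold genes Evpl (87.3 and 69.4) and Ppl (159 and 136). The median of the 19 was 0.23, or 0.46 relative to all members. The transcripts of Lor and Flg were thus higher and those of Sprr1a and Sprr1b lower in the same library. Sprr4, another small proline-rich gene, was nearly level at 47.4 and 49.5 FPKM (0.06). Of the list's 46 symbols in the table, 27 were under 10 FPKM in both genotypes. Lce1, Sprr and filaggrin genes have close copies or repeats, so reads may be shared among them and single values are uncertain.

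The AP-1 element lies in several of these promoters. The sequences below are stretches upstream of the transcription start, from the RefSeq promoters on GRCm38.p6 (250 bases before to 50 after each start), printed 5′ to 3′ on the strand of the gene with each match to TGAGTCA or its reverse complement TGACTCA in capitals. They are shown because Lor and S100a11 were among the 27 higher genes, whereas Ivl was level and Sprr1a lower. Lor is at chr3:92083144-92083230 (minus), S100a11 at chr3:93520320-93520495 (plus), Ivl at chr3:92573805-92573891 (minus) and Sprr1a at chr3:92485951-92486067 (minus).
Lor: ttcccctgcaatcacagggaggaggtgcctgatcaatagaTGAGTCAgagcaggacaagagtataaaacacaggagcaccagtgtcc
S100a11: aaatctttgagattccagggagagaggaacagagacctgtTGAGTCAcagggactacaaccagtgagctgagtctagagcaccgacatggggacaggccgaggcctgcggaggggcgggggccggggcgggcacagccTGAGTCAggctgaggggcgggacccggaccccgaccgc
Ivl: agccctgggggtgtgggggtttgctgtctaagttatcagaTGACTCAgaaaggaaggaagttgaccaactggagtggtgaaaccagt
Sprr1a: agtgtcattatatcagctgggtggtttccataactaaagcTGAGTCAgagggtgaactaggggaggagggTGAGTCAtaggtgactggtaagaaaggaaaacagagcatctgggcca

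The match began 48 bases before the start in Lor and 116 bases before it in Ivl. S100a11 and Sprr1a each held 2 matches, beginning 136 and 38 bases before the start in S100a11 and 146 and 116 bases before it in Sprr1a. The element was found on either strand in 5.95% of the 27025 genes with a promoter sequence and in 5% of the 4780 protein-coding members with one. It was found in 3 of the 22 higher genes with a promoter (Lor, S100a11 and Stfa3, where it did not lie wholly upstream of the start) and in 4 of the 41 lower genes with one (Leng8, Commd4, Prlr and 5730469M10Rik). Among 16 envelope genes with a promoter, 4 held it, including Scel, at 252 and 189 FPKM. In the spinous list it was 2 of 10, and in the sebaceous lipid, basal, and Jun and Fos lists 0 of 16, 0 of 10 and 0 of 6, numbers too small to compare with a background of 5%. The element was therefore present in promoters of genes that were higher, level and lower in cKO, and a match is a description of letters and not of binding.

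**Figure D2:**
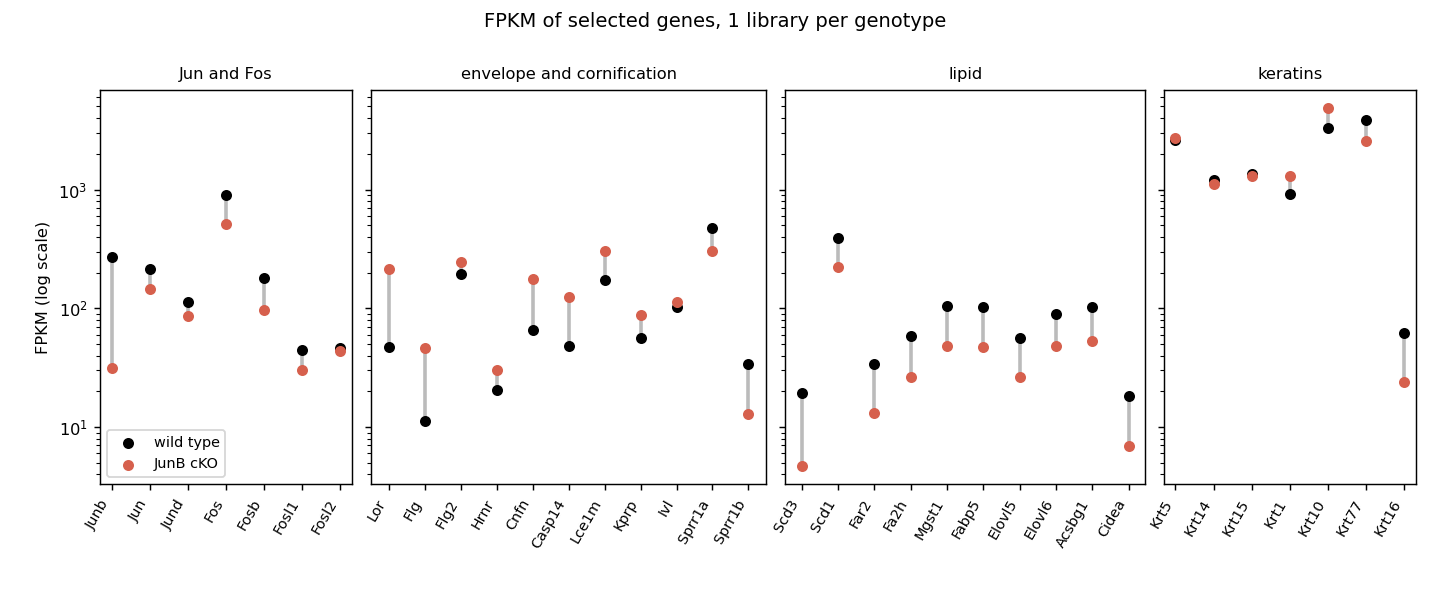
FPKM on a log scale (y axis) of Jun and Fos genes, envelope and cornification genes, lipid genes and keratins in the wild type library (black) and the JunB cKO library (red), 1 value each, with a grey line joining them. Jun, Fos and lipid genes sit lower in cKO, Lor, Flg, Cnfn and Casp14 sit higher, and Krt5, Krt14 and Krt15 coincide.

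Lor, Flg and their neighbours lie in the epidermal differentiation complex, a cluster of genes for envelope and S100 proteins. Between S100a1 and S100a10, a span at chr3:90511034-93564645 chosen after the values were seen, there were 29 protein-coding members, of which 20 were above 0 against 9 below, with a median of 0.34. 4 of the 29 were at least 2-fold higher (Lor, Flg, S100a9 and S100a11) and 1 was at least 2-fold lower (Sprr1b). S100a11, a calcium-binding protein that is crosslinked into the envelope, was the most abundant of the higher genes at 308 and 635 FPKM (1.04, interval 0.94 to 1.14). Its relatives S100a10 (388 and 354 FPKM), S100a6 (323 and 300) and S100a14 (247 and 232) were nearly level, so the S100 genes did not share 1 direction.

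**Figure D3:**
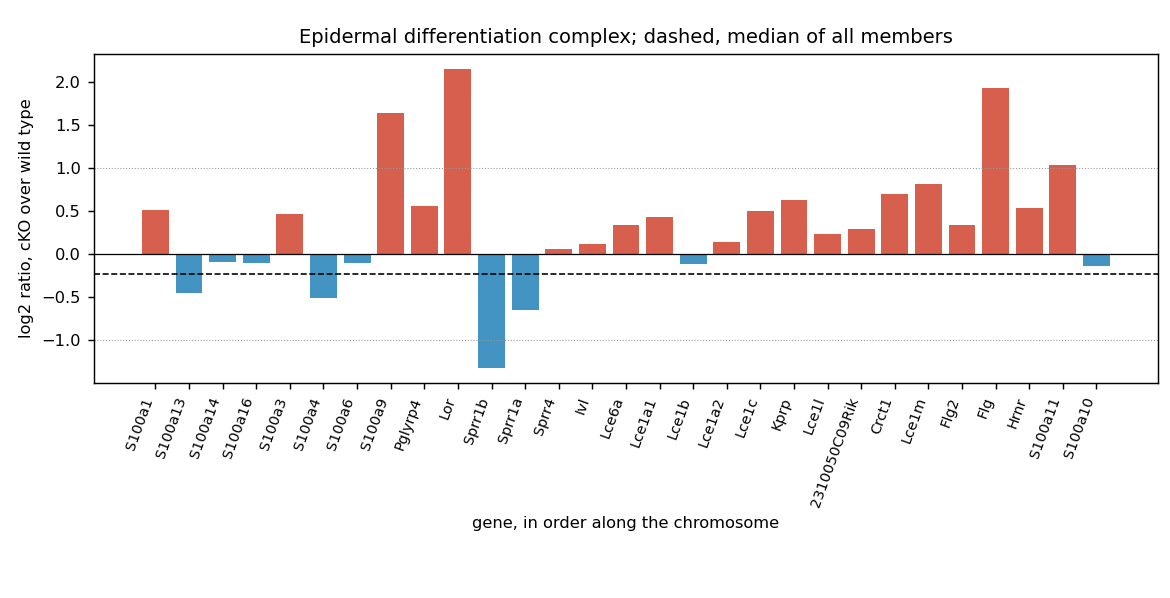
Log2 ratio of cKO over wild type (y axis) for the 29 protein-coding members of the epidermal differentiation complex in their order along the chromosome (x axis), with the median of all members as a dashed line and 2-fold as dotted lines. Bars are above 0 from Sprr4 to S100a11 with the exception of Lce1b, whereas Sprr1b and Sprr1a are the lowest.

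Enzymes of cornification followed the envelope proteins to a smaller degree. Casp14, the caspase that processes filaggrin, had 48.5 FPKM in wild type and 125 in cKO (1.35, interval 1.25 to 1.48) and was the only one of the 18 members past 2-fold. Klk7 and Klk8, proteases of desquamation, had 152 and 222 (0.54) and 44.4 and 62.3 FPKM (0.48). Tgm1, the transglutaminase that crosslinks the envelope, had 23.3 and 31.6 (0.42), and Alox12b, a lipoxygenase that prepares ceramides for attachment to it, had 23.6 and 32.5 (0.45). Prss8, a membrane serine protease, was the lowest of the list at 22 and 16.8 (-0.37), next to the serpin gene Serpinb12 (38.1 and 29.6) and the transglutaminase gene Tgm5 (30.8 and 24.3). Of the 18, 12 were above 0 and the median was 0.15, or 0.38 relative to all members. Dlx3, a homeobox factor of differentiating keratinocytes, had 6.12 and 13.7 FPKM (1.04), and it was the only one of 26 epidermal lineage transcription factors past 2-fold, in a list with a median of -0.16. Dlx3 was a member through its cKO value alone and could only be higher.

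Members of a cluster of stefin A genes, which encode inhibitors of cysteine proteases, were higher. Stfa3 had 27.7 FPKM in wild type and 102 in cKO (1.84), Stfa1 5.17 and 19.4 (1.72), and Csta 11.4 and 28.5 (1.26). BC100530, which lies between them, had 23.4 and 72.6 (1.59). All 3 protein-coding members in the span at chr16:36119946-36455392, and BC100530, were thus past 2-fold, but the span was chosen after these values were seen, and near-identical copies may share reads. Stfa1 was a member through its cKO value alone, so it could only be higher. The related Cstb, which lies on another chromosome, had 195 and 147 FPKM (-0.40).

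Alarmins and antimicrobial genes did not share 1 direction. Of the 18 members 5 were past 2-fold on the higher side (Stfa3, Stfa1, S100a9, BC100530 and S100a11) and 1 at least 2-fold lower, and the median was -0.10. S100a9, a subunit of the neutrophil and keratinocyte alarmin calprotectin, had 2.88 FPKM in wild type and 11.2 in cKO (1.65, interval 1.04 to 2.90). The neutrophil genes Csf3r and Cxcr2 were at 0 and 0.649 and at 0.104 and 1.62 FPKM. They come from 14 macrophage and neutrophil markers, all under 10 FPKM in both genotypes. Of these, Tyrobp (8.35 and 4.36) and Ptprc (2.1 and 1.91) were lower in cKO and the others higher. Such low values were raised in cKO among the sensory receptors too (medians of 0 and 0.543 FPKM). The part of neutrophils in the S100a9 value was not tested. Ccl20, a chemokine that attracts CCR6-bearing cells, had 2.37 and 10 FPKM (1.71, interval 1.27 to 2.89) and was the only one of 9 cytokine and chemokine members past 2-fold. Defb8, a beta-defensin, had 66.5 and 2.19 FPKM (-4.40), whereas the far more abundant Defb6 had 1343 and 1169 (-0.20). Ccl20 and S100a9 were members through the cKO value alone, and could only be higher.

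Lipid synthesis genes of the sebaceous type formed the clearest group on the lower side. Scd3, a stearoyl-CoA desaturase of the sebaceous gland, had 19.4 FPKM in wild type and 4.66 in cKO (-1.85, interval -2.57 to -1.58). Its relative Scd1 had 392 and 222 FPKM (-0.82), while Scd2, which is expressed in many tissues, had 33.4 and 36.6 (0.13). Far2, which makes fatty alcohols for wax esters, had 34 and 13 (-1.32), and Cidea, a lipid droplet protein, had 18.2 and 6.87 (-1.28).

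The same direction held through most of the list. Mgst1, a membrane glutathione transferase, had 105 FPKM in wild type and 48.4 in cKO (-1.10), Fabp5, the epidermal fatty acid carrier, 102 and 47.6 (-1.09), and Elovl5, an elongase of unsaturated fatty acids, 56.5 and 26.6 (-1.06). The lipid droplet coat gene Plin2 had 31.4 and 15.6 FPKM (-0.97), Acsbg1, an acyl-CoA synthetase, 103 and 53.4 (-0.94), Elovl6 89.8 and 47.8 (-0.90), Elovl3 15.8 and 8.13 (-0.88), and Fasn, the fatty acid synthase, 70.9 and 45 (-0.64). Of the 24 members 6 were at least 2-fold lower and 0 higher, 22 were below 0, and the median was -0.75, or -0.52 relative to all members, against a background of 0.916% of protein-coding members lower. Scd3, Cidea, Elovl3 and Dgat1 were members through wild type alone and could only be lower, and over the 20 members with at least 10 FPKM in both genotypes the median was -0.67. Krt79, a keratin of the sebaceous duct and infundibulum, differed less, at 406 and 326 FPKM (-0.32).

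Sterol synthesis was lower to a smaller degree. Lss, the cyclase that makes lanosterol, had 34.4 FPKM in wild type and 18.9 in cKO (-0.83), and Hsd17b7, a reductase of the pathway, had 29 and 16.2 (-0.80). Of the 20 members 19 were below 0, with a median of -0.44, or -0.21 relative to all members. At the upper end were Dhcr7 (41.7 and 44.2 FPKM), Acat2 (13.1 and 11.8) and Srebf2, the transcription factor of the pathway (50.2 and 45.1).

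Ceramide genes of the epidermal barrier did not follow this pattern. Their 23 members had a median of -0.19, close to that of all members, with 6 of 23 above 0. Fa2h, a fatty acid hydroxylase that is also expressed in sebaceous glands, had 58.5 FPKM in wild type and 26.4 in cKO (-1.12) and was the only one of them past 2-fold. Sptlc3, a subunit of the enzyme that starts sphingolipid synthesis, had 72.5 and 46.1 (-0.64), and Elovl4, which makes very long acyl chains, 360 and 239 (-0.59). Elovl1, another elongase, had 163 and 196 (0.26), Sdr9c7 22.8 and 30.6 (0.41), and Lipn, an acid lipase of the granular layer, 7.36 and 10.5 (0.46).

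Other lower genes outside these lists included lipid enzymes. Acss2, which makes acetyl-CoA from acetate, had 19.1 FPKM in wild type and 6.24 in cKO (-1.47), Acoxl, an acyl-CoA oxidase-like gene, 11.6 and 2.71 (-1.76), Ces1d, a carboxylesterase, 11.1 and 3.41 (-1.46), and Cyp27a1, a sterol hydroxylase, 14.7 and 4.51 (-1.51). Lass4, a ceramide synthase, had 29.8 and 11.2 (-1.33), and Hpgds, a prostaglandin D synthase, 29.1 and 11.6 (-1.26). These genes, apart from Acoxl and Cyp27a1, were picked for mention after their values were seen. Acss2, Acoxl, Ces1d and Cyp27a1 were members through wild type alone and could only be lower.

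**Figure D4:**
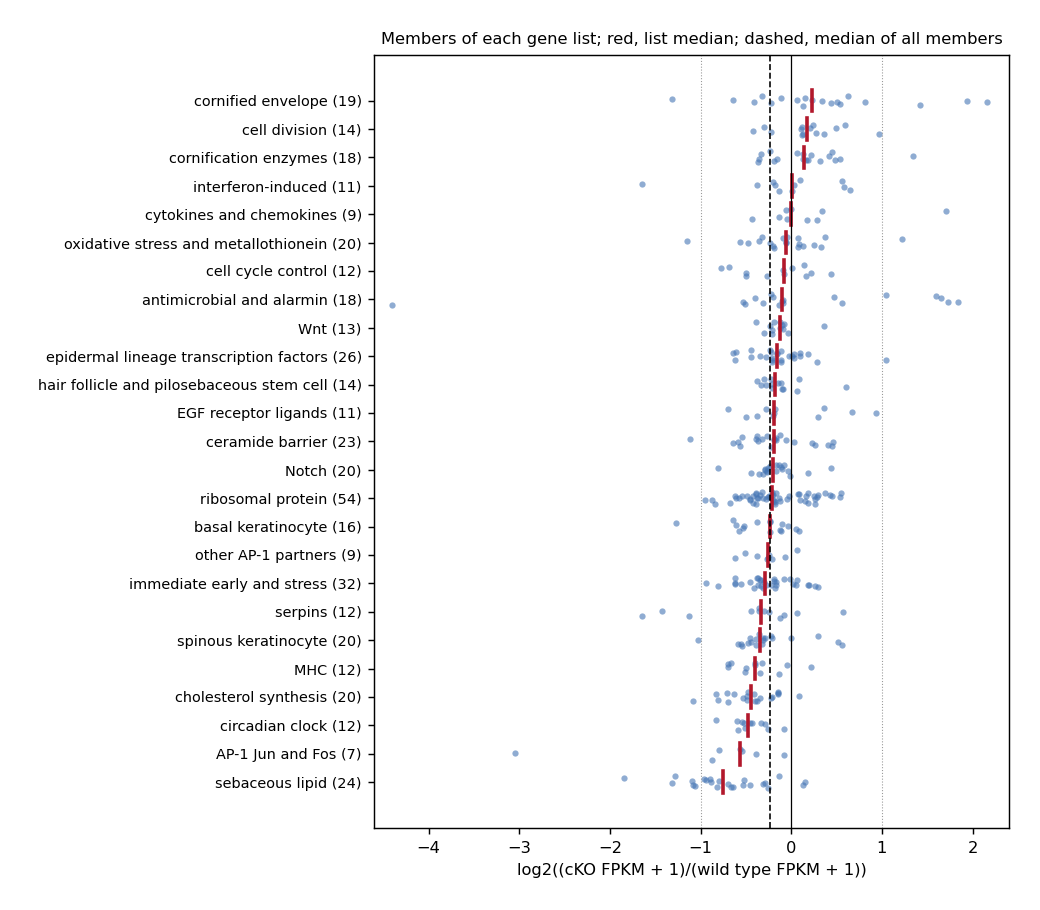
Log2 ratio of cKO over wild type (x axis) for the members of each gene list (y axis, number of members in parentheses), 1 point per gene, with list medians in red, the median of all members as a dashed line and 2-fold as dotted lines. Among the lists drawn, which leave out cell type markers and lists of under 5 members, the sebaceous lipid list has the lowest median (-0.75) and the cornified envelope list the highest (0.23).

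The structural genes of basal and spinous keratinocytes differed little. Of the 16 basal members 1 was at least 2-fold lower and 0 higher, and the median of -0.24 was that of all members to within 0.01. The 1 lower gene was Igfbp3, a secreted binding protein of insulin-like growth factors, with 173 FPKM in wild type and 71 in cKO (-1.27, interval -1.41 to -1.16). Col17a1, a collagen of the hemidesmosome, had 645 and 412 (-0.65), Col7a1, of the anchoring fibrils, 23.8 and 15.2 (-0.61), and Itga6, the hemidesmosomal integrin, 116 and 79.6 (-0.54), whereas Itga3 had 24.4 and 26 (0.09) and Trp63, the master regulator of stratified epithelia, 169 and 143 (-0.24).

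In the spinous list the keratins were split. Krt10 had 3320 FPKM in wild type and 4889 in cKO (0.56), Krt1, its partner, 917 and 1310 (0.51), and Krtdap, a secreted protein of differentiating cells, 5447 and 6695 (0.30). Krt77, by comparison, had 3875 and 2570 (-0.59) and Krt78 46.4 and 31.4 (-0.55). The desmosomal genes Dsg1b (68.1 and 32.9, -1.03), Dsg1a (440 and 316), Pkp3 (206 and 141), Dsc3 (666 and 519) and Dsp (1115 and 891) were all lower. The 20 members had a median of -0.34, or -0.11 relative to all members, with 3 of 20 above 0 and 1 past 2-fold.

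Genes often seen in wounded or stressed epidermis did not behave as a group. Krt16, a keratin of hyperproliferative epidermis, had 62 FPKM in wild type and 23.8 in cKO (-1.34, interval -1.64 to -1.13), whereas Krt6a, its usual partner, had 19.7 and 23.2 (0.22) and Krt17 755 and 798 (0.08). Among 12 serpin members, 3 were at least 2-fold lower, against 0.916% of protein-coding members. They were Serpina3j (25.1 and 7.36 FPKM, -1.64), Serpina3b (42.1 and 15, -1.43) and Serpinb2, an intracellular inhibitor found in the envelope (630 and 288, -1.13). Serpina12, which lies beside the Serpina3 genes, had 26.9 and 40.5 (0.57), and Serpinb7 133 and 140 (0.07). Serpina3 genes have close copies, so their values are uncertain.

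Of the 20 oxidative stress and metallothionein members, 1 was past 2-fold in each direction. Mt4, the metallothionein of stratified epithelia, had 186 FPKM in wild type and 83.2 in cKO (-1.15, interval -1.44 to -0.90), and Mt1, an inducible relative, 407 and 293 (-0.47). Hmox1, which breaks down haem, had 8.09 and 20.1 FPKM (1.22, interval 0.97 to 1.66), but it was a member through its cKO value alone and could only be higher. Prdx6, a peroxiredoxin, had 60.8 and 40.7 (-0.57), and Nfe2l2, which controls the antioxidant response, 31 and 34 (0.13).

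Antigen presentation genes were mostly lower by small amounts. Of 12 MHC members 0 passed 2-fold and 1 was above 0, with a median of -0.40, or -0.17 relative to all members. The class I genes H2-D1 (385 and 242 FPKM, -0.67), H2-K1 (668 and 473, -0.50) and H2-T23 (108 and 66.1, -0.70) were lower, whereas B2m, the light chain they share, had 2087 and 2428 (0.22). Class I genes are close copies and may share reads. The class II genes H2-Aa (66.1 and 52.4) and H2-Eb1 (34.4 and 25.8) were lower, and H2-Ab1 was nearly level (52.2 and 50.5). The 7 Langerhans cell members, which include these genes, had a median of -0.14, or 0.09 relative to all members. They ranged from Cd207 (-0.59) to Il1r2 (52.6 and 57.2, 0.12). The part of Langerhans cells, which carry class II genes, in these values was not tested. Among 7 Schwann cell and nerve markers, 3 were members and all 3 were below 0, with Ngfr, a receptor also carried by some epithelial cells, at 10.5 and 4.26 FPKM (-1.13).

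The interferon-induced list had 11 members, a median of 0.01 and 1 member past 2-fold. Ifi202b, a DNA-binding interferon-inducible protein, had 92.6 FPKM in wild type and 28.8 in cKO (-1.65, interval -1.90 to -1.47). Ifitm3 and Ifitm2, which restrict viral entry, had 101 and 159 FPKM (0.65) and 134 and 200 FPKM (0.58).

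Signalling lists contained no member past 2-fold. Of the listed genes, 19 of 39 Notch and 32 of 45 Wnt genes were under 10 FPKM in both genotypes and were not assessed. The 20 Notch members had a median of -0.20 and the 13 Wnt members one of -0.13, both near that of all members. Dll1, a Notch ligand, was the lowest of them at 15.5 and 8.39 FPKM (-0.81), while the receptor Notch1 had 61 and 69.6 (0.19) and the Notch target Hes1 76 and 70.1 (-0.12). Among 11 genes of EGF receptor signalling (median -0.19), the ligands Btc (11.3 and 22.5, 0.93) and Tgfa (7.25 and 12.2, 0.67) were higher, the receptor Egfr was at 64.2 and 49.1 (-0.38), and its feedback inhibitor Errfi1 was at 52.6 and 32.1 (-0.69).

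The cell division list had no gene past 2-fold. Its 14 members had a median of 0.17, or 0.40 relative to all members, and 11 were above 0. Stmn1, a microtubule regulator, had 7.5 FPKM in wild type and 15.6 in cKO (0.97), the mitotic ubiquitin enzyme Ube2c 9.31 and 14.6 (0.59), the cyclin Ccna2 10 and 14.4 (0.49) and the proliferation antigen Mki67 20.5 and 24.9 (0.27), whereas Pcna, the replication clamp, had 21.8 and 18.6 (-0.22). Stmn1, Ube2c, Cdca3 and Rrm2 were members through cKO alone and could only be above 0, and over the 9 members with at least 10 FPKM in both genotypes the median was 0.13. Another 29 of the 43 listed division genes were under 10 FPKM in both genotypes. Of 12 cell cycle control genes, 0 passed 2-fold. They ranged from Sfn, which encodes 14-3-3 sigma (473 and 275, -0.78), to the cyclin-dependent kinase inhibitor Cdkn1a (125 and 171, 0.44).

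The circadian clock members all lay below 0, as did 4992 of the 6343 members. The 12 clock genes had a median of -0.48, or -0.25 relative to all members, and 0 passed 2-fold. Per1, a repressor of the clock, had 30.4 FPKM in wild type and 16.6 in cKO (-0.83), Arntl, an activator, 20.7 and 13.4 (-0.59), and Dbp, an output factor, 17.3 and 11.6 (-0.54). The time of day of sampling is not given in the sources used here, and its part in these values was not tested.

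Hair follicle genes showed little difference. Of 14 members of the hair follicle and pilosebaceous stem cell list 0 passed 2-fold, and the median was -0.18. Lrig1, a marker of the upper follicle, had 41.1 and 33.8 FPKM (-0.28), Lgr6 31.9 and 25.1 (-0.33), Cd34 32.5 and 27.6 (-0.22) and Sox9 39.4 and 36.5 (-0.11), while Barx2 had 29.2 and 45 (0.61). Only 3 of the 24 listed hair shaft and inner root sheath genes were members.

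Several of the most extreme protein-coding values came from genes that share their locus with another row, where the split of reads is uncertain. Of the called genes, 1 of 27 higher and 13 of 54 lower shared a locus. Dnaja1, a heat shock co-chaperone, had 45.8 FPKM in wild type and 4.58 in cKO (-3.07) beside Smu1 at 23 and 19.5, and Apba3 had 65.8 and 10.5 (-2.54) beside Tjp3 at 36.4 and 26.6. H3f3b, a histone H3.3 gene, had 31.7 and 5.92 (-2.24) beside Gm19826 at 222 and 236. Pold4, a DNA polymerase subunit, had 11.2 and 2.36 (-1.86), whereas LOC100861921 at the same locus went the opposite way, from 6.14 to 21.7. Far2, Fabp5, Cidea and Acss2 also shared a locus, and without shared loci 41 protein-coding genes were at least 2-fold lower and 26 at least 2-fold higher.

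Some of the largest differences were in genes of no fixed list. Prmt2, an arginine methyltransferase, had 73.9 FPKM in wild type and 2.06 in cKO (-4.61, interval -5.91 to -4.45), Ctdsp2, a phosphatase, 157 and 46.3 (-1.74, interval -1.87 to -1.66), and Fam65a 15.9 and 1.58 (-2.71). On the higher side Sebox, a homeobox gene, had 4.96 and 22 (1.95), Nupl1, a nucleoporin, 120 and 353 (1.55), Anp32b, a nuclear chaperone, 6.29 and 18.6 (1.43), and Spns2, a sphingosine phosphate transporter, 8.13 and 20.5 (1.23). Krtap6-3, a hair keratin-associated gene, was listed at 0 in wild type and had 10.2 FPKM in cKO. Sebox, Anp32b, Spns2 and Krtap6-3 were members through cKO alone and could only be higher. Prmt2 and Fam65a were members through wild type alone and could only be lower. Lars2, a mitochondrial leucyl-tRNA synthetase, had 3661 and 13947 FPKM (1.93), and the abundant short RNA Mir5105 was also higher, with 179074 and 475238 FPKM. The part of such abundant RNAs in the Lars2 value was not tested.

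The same genes were then looked up in the hair-plucking and wound tables, whose libraries are separate from those above but which also hold 1 value per genotype. Their samples are titled skin biopsies, not isolated keratinocytes, so condition and tissue cannot be told apart in any difference between the tables. Junb had 40.8 FPKM in wild type and 11.7 in cKO after plucking and 33.4 and 15.4 in wounds. Tables were normalised separately and levels are not compared between them. Of the 27 higher genes, 21 had at least 10 FPKM in the plucking table, and 9 of these were at least 2-fold higher there, against 7.27% of the 4926 protein-coding members found in both tables, while 1 was 2-fold lower. In wounds 3 of 19 were 2-fold higher, against 0.936% of 4702, and 0 were 2-fold lower. Of the 54 lower genes, 15 of the 38 in the plucking table were at least 2-fold lower, against 6.72%, and 3 were 2-fold higher. In wounds 3 of 35 were 2-fold lower, against 0.51%, and 6 were 2-fold higher.

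Among the differentiation genes, Casp14 had 34.9 FPKM in wild type and 79.7 in cKO after plucking and 17.5 and 28.8 in wounds, and Krt10 had 2004 and 3685 and then 1141 and 1770. Cnfn had 3.61 and 41.3 FPKM after plucking but 26.1 and 21.3 in wounds. Lor had 139 and 203 after plucking and was level in wounds at 52.9 and 55.6, and Flg likewise had 991 and 1487 and then 261 and 279. Krt10 and Casp14 were thus higher in cKO in all 3 tables, whereas the differences of Lor and Flg in wounds were close to 0. S100a9 had 2.56 and 250 FPKM after plucking and 10.9 and 77.5 in wounds, and Stfa3 175 and 258 and then 17.6 and 102.

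The lipid genes parted between the tables. After plucking, Fabp5 had 461 FPKM in wild type and 75.9 in cKO, Mgst1 290 and 118, and Far2 210 and 97.6, whereas Scd3 was nearly level at 43.3 and 39.8. In wounds Far2 had 27.9 and 56.9 FPKM, Scd3 19.1 and 39.3, and Fa2h 15.9 and 38.6, so these genes were higher in cKO there, while Mgst1 (188 and 183) and Fabp5 (91.6 and 82) were nearly level. The sebaceous lipid list had a median log2 ratio of -0.67 over 27 genes after plucking, with 8 at least 2-fold lower and 1 higher, and of 0.46 over 30 genes in wounds, with 7 at least 2-fold higher and 0 lower. Markers of some other cells in the skin moved with it, and others did not. After plucking, 4 of 6 adipocyte markers were at least 2-fold lower (median -1.57, summed FPKM 291.7 and 98.5), as were all 6 skeletal muscle markers (median -2.79) and 7 of 15 fibroblast markers (median -0.75). In wounds all 9 adipocyte markers were above 0 (median 0.62), whereas the fibroblast and skeletal muscle medians were near 0 (0.09 and 0.14). Melanocyte markers went the other way, with medians of 0.53 over 3 genes after plucking and -0.75 over 6 in wounds. Mast cell markers had medians of 0.36 over 3 genes after plucking and 0.77 over 4 in wounds. The part of these cells in the lipid values was not tested. Krt16 had 88 and 88.6 FPKM after plucking and 34.9 and 53.3 in wounds, and Igfbp3 52.6 and 16.4 and then 70.8 and 60.2.

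**Figure D5:**
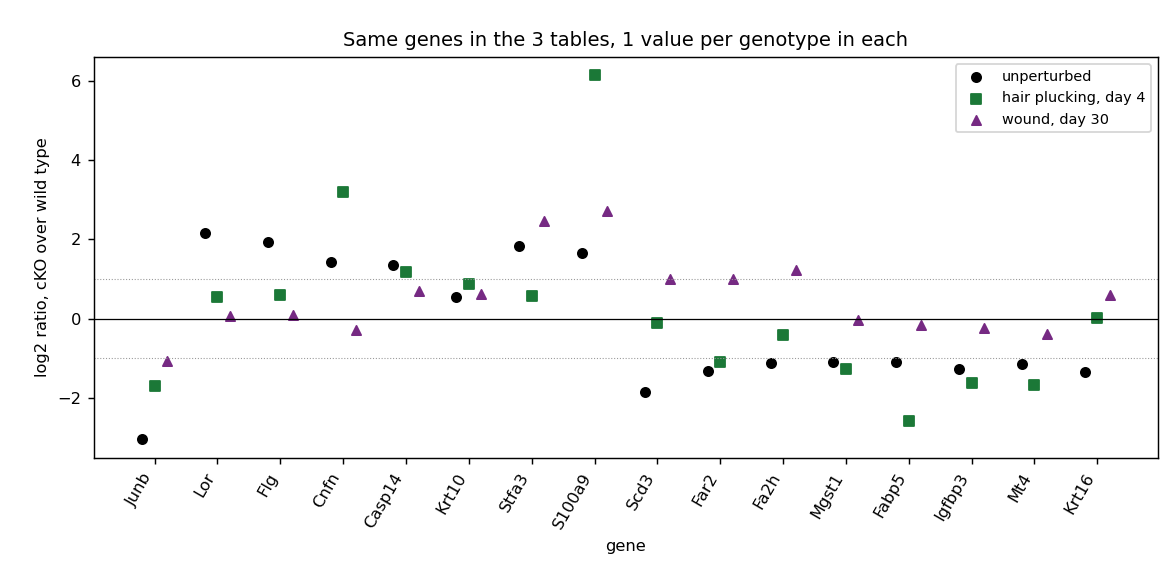
Log2 ratio of cKO over wild type (y axis) of 16 genes (x axis) in unperturbed keratinocytes (black circles), after hair plucking (green squares) and in wounds (purple triangles), with dotted lines at 2-fold. Junb is below 0 in all 3 tables, and Scd3, Far2 and Fa2h are below 0 in unperturbed keratinocytes and above 0 in wounds.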

How the data were processed

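RNA of trypsin-isolated keratinocytes was depleted of ribosomal RNA and made into directional libraries, per the labels. According to the study's methods, single reads of 75 bases were aligned to GRCm38, and the submitters' processing notes name Cufflinks and Cuffdiff. The FPKM values deposited by the authors are 1 per genotype and locus, and the other tables also hold 1 FPKM per genotype, although the labels give 2 wound samples of each. These were taken as pooled by the authors, and the tables were tied to their conditions by name. The tables also hold the authors' own fold changes, test statistics and p-values, which were not used.

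From the FPKM values, rows with a single symbol were kept, with 1 locus per symbol and at least 10 FPKM in either genotype, and log2 ratios were taken after adding 1 FPKM (Python 3.11.15, pandas, scipy). 1 was added to locus starts. The members and gene lists were chosen with earlier results of these data known. The text names Junb and the other Jun and Fos genes, the 15 largest increases and decreases without predicted genes and small RNAs, the 10 highest genes in wild type, and the extremes and defining genes of each of the 39 lists; other names were chosen after their values were seen. Gene classes came from RefSeq, promoters from RefSeq on GRCm38.p6. The filter of 10 FPKM fell between Nxt2 (9.43 and 10 FPKM) and Kif2a (9.3 and 10 FPKM, just under it). Of 39 lists, the mitochondrial genome list had 0 symbols in the table. Alternatives were other pseudocounts, filters and fold limits, centring, subtraction of the sensory receptor level, and leaving out predicted genes, small RNAs or shared loci. The ratio script was tested on simulated data. Some genes that the naming rule selects are not reported here.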

Additional observations from a re-analysis of the deposited data

Results flagged for a closer look

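10 genes past 2-fold in unperturbed keratinocytes were past 2-fold the opposite way in another table, with at least 10 FPKM in 1 genotype there. The difference between the conditions was not tested in any of them, since each table holds 1 value per genotype, and the other tables are from skin biopsies. After hair plucking, the log2 ratio of cKO over wild type was 3.18 for Clca1 (against -1.06 in unperturbed keratinocytes), 1.16 for Ifi202b (against -1.65), 1.05 for Leng8 (against -1.08) and -2.17 for Lars2 (against 1.93). In wounds it was 1.01 for Scd3 (against -1.85), 1.002 for Far2 (against -1.32), 1.23 for Fa2h (against -1.12), 1.15 for Paqr7 (against -1.15), 1.24 for Ces1d (against -1.46) and 1.87 for Dgcr8 (against -1.48).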

How the results depend on the processing

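Each genotype had 1 library, so no library could be left out. No paired analysis was possible because the tables hold 1 value per genotype. The log2 ratio of Junb stayed at or below -2.82, its value after centring on the median of all members. The number of genes at least 2-fold higher and lower was 103 and 114. It was 42 and 43 with at least 10 FPKM in both genotypes, 68 and 63 with at least 30 in either, and 2452 and 223 with at least 1 in either or with no filter. It was 135 and 77 after centring and 96 and 154 after subtracting the sensory receptor level. Limits of 1.5-fold and 4-fold gave 192 and 618, and 51 and 45. Without predicted genes and small RNAs it was 26 and 53, and without loci shared with another symbol, an alternative chosen after seeing the data, 54 and 49. The median over members was -0.241 with 0.1 FPKM added, -0.191 with 5 added, -0.213 with at least 10 FPKM in both genotypes, -0.034 with at least 1 in either, 0.130 with no filter, -0.277 after subtracting the sensory receptor level and 0 by construction after centring. The cholesterol synthesis median was -0.211 after centring. The medians of the cornified envelope, sebaceous lipid, and Jun and Fos lists kept their direction in every alternative. Among 21 other lists, 22 of 231 values reversed. Centring gave 0.037 for ceramide barrier, 0.053 for hair follicle, 0.130 for antimicrobial, 0.228 for cytokine, 0.028 for Notch, 0.105 for Wnt, 0.044 for EGF receptor, 0.146 for cell cycle control, 0.171 for oxidative stress, 0.073 for lineage factor and 0.023 for ribosomal protein genes. With at least 1 FPKM in either genotype, antimicrobial, cytokine and Wnt genes had 0.561, 0.307 and 0.168, and with no filter 0.467, 0.400 and 0.191, with serpins at 0.144. Interferon-induced genes had -0.137 with at least 30 FPKM and -0.022 after the receptor subtraction. Without shared loci, cytokine and oxidative stress genes had 0.178 and 0.0039. The cause of these reversals was not tested, apart from centring, which adds 0.23 to every value. Depth limits low genes most, above all in the shallower cKO library.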
